A study of Homo sapiens with 6 samples.

Results

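The hypoxia and glycolysis genes examined here were a list of 40 named genes, looked up by symbol in a table of 16200 genes, and each of the 40 was found. They fell into 22 glycolytic enzymes and transporters and 18 other genes of the hypoxia-inducible factor (HIF) system. The mRNAs were sequenced, after selection on poly(A), from RBE, a cell line grown from a human cancer of the bile ducts inside the liver. There were 3 libraries labelled sgKCNQ3, a name for a guide RNA against KCNQ3, which encodes a voltage-gated potassium channel subunit, and 3 libraries labelled NC, taken as the controls. The study describes KCNQ3 knockdown in this line, and the labels name no drug, time or oxygen level for either group. They do not say whether the libraries of a group came from separate cultures or 1 clone, so the p-values measure the spread between these libraries, which may be technical.

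Glycolysis turns glucose into pyruvate in the cytosol, and lactate dehydrogenase and a lactate exporter then carry the end product out of the cell. HIF is a pair of proteins, an alpha subunit that prolyl hydroxylases of the EGLN family mark for destruction when oxygen is present, and a stable beta subunit. Under low oxygen the alpha subunit persists, binds the core sequence of hypoxia response elements and raises transcription of glycolytic genes, of VEGFA and of EGLN3 itself, among others. Because the alpha subunit is controlled mainly as a protein, HIF1A mRNA does not report HIF activity, and protein was not analysed here.

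Depth was alike in all libraries, at 15685137 to 15722455 counts in sgKCNQ3 and 15601283 to 16089500 in NC. KCNQ3 mRNA was modestly lower in sgKCNQ3, at 13.95, 13.06 and 11.95 CPM (read counts scaled for library size) against 16.6, 16.2 and 16.1 CPM in NC (log2 fold change -0.33, SE 0.0841, edgeR quasi-likelihood adjusted p 0.00446). The labels do not say how the guide acts, so this mRNA level need not measure how far KCNQ3 function was reduced. Of the 7 biliary markers looked up, all 7 passed the filter on low counts, and their summed level was 4640 to 4760 TPM (the deposited level per transcript length) in sgKCNQ3 against 4010 to 4100 TPM in NC. Hepatocyte markers, of which 1 of 5 passed the filter, summed to 76.0 to 85.5 TPM in sgKCNQ3 and 73.0 to 74.9 TPM in NC, without overlap. Leukocyte markers summed to 0.93 to 1.44 TPM in sgKCNQ3 and 0.89 to 1.22 TPM in NC, endothelial markers to 0.13 to 0.38 TPM in sgKCNQ3 and 0.09 to 0.18 TPM in NC, fibroblast markers to 1.82 to 2.01 TPM in sgKCNQ3 and 1.45 to 1.94 TPM in NC, and erythroid markers to 1.76 to 3.17 TPM in sgKCNQ3 and 0.6 to 4.68 TPM in NC. The part of the biliary and hepatocyte marker differences in the results was not tested. In bulk samples, fewer cells of a type and less RNA per cell cannot be told apart.

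Changes among these genes were small, and they ran in both directions within the HIF-related group. Of the 40 genes, 39 passed the filter, the exception being LDHB, and 20 were called at an adjusted p under 0.05, with 7 higher and 13 lower in sgKCNQ3. That was 51.3% of the tested members, beside 29.1% of all 12565 tested genes (14.0% called higher and 15.1% called lower). Of all calls 48.2% were higher, against 64.5% with library size alone and 80.8% on log2(TPM + 1), where the median of all genes lay at 0.06. Calls were commoner among abundant genes: with a mean of at least 50 CPM, 39.3% of all tested genes were called, and 14 of 27 members. Among the glycolytic genes 1 of 21 was called higher and 8 lower, with a median log2 fold change of -0.07. Among the other HIF-related genes 6 of 18 were called higher and 5 lower, with a median of 0.04. Over all tested genes the median was -0.01, and the median size of change was 0.12, the same as among the members. The fitted change was 0.5 or more in size on the log2 scale for 3 of 39 members, beside 575 of all 12565 tested genes. These members were CA12, EGLN3 and ALDOC, and ALDOC was not called. The libraries of the groups did not overlap in CPM for 24 of 39 members, beside 41.7% of all tested genes.

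The count of lower glycolytic genes was not the same in every setting, and was 5 with library size alone. With trends over length and GC content of the transcripts removed per library, 4 glycolytic genes were called lower and 2 higher, while 25.9% of all genes were called. On log2(TPM + 1), tested with limma-trend, 1 was called lower and 2 higher, and the glycolytic median turned to 0.02. The median of all tested genes moved as well, from -0.01 to 0.06, so the glycolytic median still lay below it. Without sgKCNQ3 replicate 1 the count of lower glycolytic genes was 5. The HIF-related counts were 5 higher and 5 lower with length and GC trends removed, and 7 higher and 3 lower on log2(TPM + 1).

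**Figure D1:**
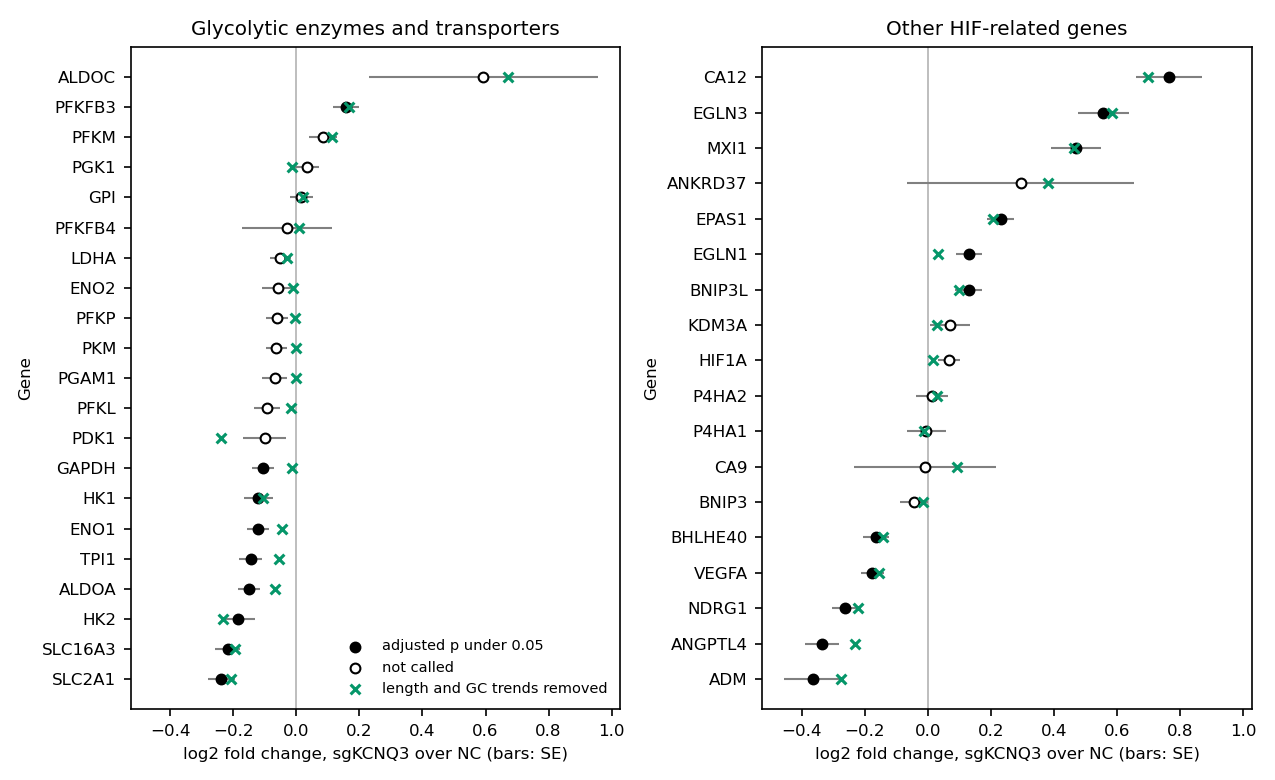
Log2 fold change (sgKCNQ3 over NC) of the 39 tested genes, glycolytic on the left and HIF-related on the right, with bars for the SE, filled points for an adjusted p under 0.05 and crosses for the value with length and GC trends removed. CA12, EGLN3 and MXI1 stand highest among the called genes and ADM and ANGPTL4 lowest, while the crosses of GAPDH, ENO1, TPI1 and ALDOA lie nearer 0 than their points.

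Promoters are shown for the genes with a single listed start that had the 3 largest called rises and the 3 largest called falls, since these genes moved in opposite directions while being grouped as targets or parts of the HIF system. Sequences are from RefSeq (GRCh38.p14), from 250 bases before to 50 bases after the start, 5′ to 3′ on the gene's strand, with the core of the hypoxia response element in capitals (ACGTG or GCGTG, or on the other strand CACGT or CACGC).
The genes higher in sgKCNQ3 come first.
CA12 (chr15:63381797-63382096, minus strand): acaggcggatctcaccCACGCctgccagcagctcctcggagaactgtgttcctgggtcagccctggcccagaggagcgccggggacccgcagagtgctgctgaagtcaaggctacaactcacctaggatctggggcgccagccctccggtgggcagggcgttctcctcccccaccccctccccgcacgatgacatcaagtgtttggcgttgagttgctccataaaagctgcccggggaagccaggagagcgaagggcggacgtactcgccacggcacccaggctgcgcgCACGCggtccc
EGLN3 (chr14:33951025-33951324, minus strand): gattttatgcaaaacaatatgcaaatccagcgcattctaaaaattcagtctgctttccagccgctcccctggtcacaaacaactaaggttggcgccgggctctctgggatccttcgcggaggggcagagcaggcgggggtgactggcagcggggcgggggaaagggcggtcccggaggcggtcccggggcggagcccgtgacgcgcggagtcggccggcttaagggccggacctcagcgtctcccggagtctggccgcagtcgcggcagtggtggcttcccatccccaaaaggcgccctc
EPAS1 (chr2:46297157-46297456, plus strand): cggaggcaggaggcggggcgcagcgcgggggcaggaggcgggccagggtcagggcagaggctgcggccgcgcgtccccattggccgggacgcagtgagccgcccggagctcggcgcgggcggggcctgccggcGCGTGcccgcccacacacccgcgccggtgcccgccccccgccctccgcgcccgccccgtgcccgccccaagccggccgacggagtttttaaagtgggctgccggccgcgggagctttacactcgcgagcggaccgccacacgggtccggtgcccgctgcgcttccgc
The genes lower in sgKCNQ3 follow.
SLC2A1 (chr1:42958819-42959118, minus strand): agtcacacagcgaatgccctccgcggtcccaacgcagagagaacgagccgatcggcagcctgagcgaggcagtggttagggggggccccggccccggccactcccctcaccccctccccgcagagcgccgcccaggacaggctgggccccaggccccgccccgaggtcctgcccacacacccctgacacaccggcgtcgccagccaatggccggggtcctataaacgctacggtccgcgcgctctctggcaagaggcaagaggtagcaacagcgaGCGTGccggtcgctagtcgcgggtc
ANGPTL4 (chr19:8363905-8364204, plus strand): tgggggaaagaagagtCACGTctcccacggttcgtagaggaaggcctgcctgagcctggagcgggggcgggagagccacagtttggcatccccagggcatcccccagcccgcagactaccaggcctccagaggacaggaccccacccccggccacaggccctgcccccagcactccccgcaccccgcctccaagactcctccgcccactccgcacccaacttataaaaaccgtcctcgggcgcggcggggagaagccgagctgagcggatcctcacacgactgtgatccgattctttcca
ADM (chr11:10304823-10305122, plus strand): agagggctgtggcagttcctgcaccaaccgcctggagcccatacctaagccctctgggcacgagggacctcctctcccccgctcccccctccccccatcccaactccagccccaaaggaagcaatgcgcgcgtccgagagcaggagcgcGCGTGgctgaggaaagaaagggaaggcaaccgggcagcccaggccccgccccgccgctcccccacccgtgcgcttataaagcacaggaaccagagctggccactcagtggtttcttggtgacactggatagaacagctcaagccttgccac
The core stood at -234 and 40 in CA12, at -117 in EPAS1, at 26 in SLC2A1, at -234 in ANGPTL4 and at -101 in ADM, counted from the start to the first base of the core. The EGLN3 window held no such match. Binding of HIF at a marked core was not tested, and sequence outside the listed windows was not searched. In all, 36 of the 39 tested members had a listed promoter, and VEGFA, NDRG1 and BNIP3L were not among them. A core was found in 5 of 6 members called higher, 11 of 11 called lower and 17 of 19 not called, beside 70.4% of 10354 tested genes with a listed promoter. The palindrome CACGTG, which overlaps the core on both strands and is the site of MYC-type factors, was found in 1, 4 and 4 of these members, beside 12.6% of the same 10354 genes. Members with several listed starts, 13 of the 36, had more sequence in which a match could occur.

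The mRNAs of the glucose importer and of the lactate exporter were both lower in sgKCNQ3. SLC2A1 encodes GLUT1, the basal glucose transporter of most cells, and it lay at 217, 201 and 221 CPM in sgKCNQ3 against 241, 260.1 and 251 CPM in NC. Every sgKCNQ3 library was below every NC library (log2 fold change -0.24, SE 0.0417, edgeR adjusted p 1.34e-04), a fall of 15.2%. SLC16A3 encodes MCT4, the exporter of lactate in glycolytic cells. It held 146.5, 147 and 150.5 CPM in sgKCNQ3 against 169.5, 177 and 169 CPM in NC, again without overlap (log2 fold change -0.22, SE 0.0396, edgeR adjusted p 1.98e-04). The fall of SLC16A3 was called in each of the 16 alternative tests, and that of SLC2A1 in each but log2(TPM + 1) (-0.15, limma adjusted p 0.0784).

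Hexokinase traps glucose in the cell, and HK2, its strongly inducible form, was lower at 45.6, 46.3 and 44.9 CPM in sgKCNQ3 against 50.4, 53.8 and 51.4 CPM in NC (log2 fold change -0.18, SE 0.0528, edgeR adjusted p 0.0100). It was called in 15 of 16 alternatives, the exception being log2(TPM + 1). HK1, the widely expressed form, was near the threshold, at 113.5, 117 and 114 CPM in sgKCNQ3 against 124, 133 and 118 CPM in NC (log2 fold change -0.12, edgeR adjusted p 0.0462). HK1 was called in only 5 of 16 alternatives, and not with DESeq2 (-0.11, adjusted p 0.121) or with length and GC trends removed (-0.11, adjusted p 0.0568). Without NC replicate 2 the HK1 value was -0.07 (edgeR adjusted p 0.240), and without NC replicate 1 it was -0.13 (0.0805). HK1 also missed the threshold without sgKCNQ3 replicate 1 (-0.11, edgeR adjusted p 0.159) or sgKCNQ3 replicate 3 (-0.11, 0.114). GPI, the isomerase of the next step, passed no threshold (0.02, edgeR adjusted p 0.776).

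The phosphofructokinase step, which commits sugar to glycolysis, showed no called subunit. PFKP, the platelet-type subunit, was the most abundant at 549, 552 and 549.9 TPM in sgKCNQ3 against 539, 552 and 534 TPM in NC. PFKM, the muscle-type subunit, lay at 97.7, 108 and 99.3 CPM in sgKCNQ3 against 96.7, 95.7 and 95.5 CPM in NC. The groups did not overlap for PFKM, but its difference was not called (log2 fold change 0.08, edgeR adjusted p 0.170), except with library size alone (0.12, adjusted p 0.0448), with length and GC trends removed (0.11, adjusted p 0.0450) and on log2(TPM + 1) (0.17, limma adjusted p 0.0221). PFKL, the liver-type subunit, had a log2 fold change of -0.09 (edgeR adjusted p 0.103).

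PFKFB3 was the 1 glycolytic gene called higher. It encodes the kinase-dominant enzyme that makes fructose-2,6-bisphosphate, an allosteric activator of phosphofructokinase. PFKFB3 held 146.5, 138 and 143 CPM in sgKCNQ3 against 127, 131 and 126 CPM in NC, with no overlap (log2 fold change 0.16, SE 0.0414, edgeR adjusted p 0.00553). Its call held in each of the 16 alternatives. PFKFB4, the related enzyme, was scarce at 2.30, 1.75 and 2.39 TPM in sgKCNQ3 against 2.06, 2.22 and 2.02 TPM in NC, and its groups overlapped.

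The abundant enzymes of the lower pathway were called lower by small amounts or not called, and CPM fell by 7.06% for GAPDH and by 9.92% for ALDOA. GAPDH, the glyceraldehyde-3-phosphate dehydrogenase, was the most abundant member and is often used as a reference gene. It held 5581, 5577 and 5700.0 CPM in sgKCNQ3 against 5739, 6139 and 6261 CPM in NC (log2 fold change -0.11, SE 0.0356, edgeR adjusted p 0.0271). On the deposited TPM scale the GAPDH groups overlapped, at 8951, 8729 and 9234 TPM in sgKCNQ3 against 8678, 9232 and 9519 TPM in NC. The aldolase ALDOA held 1033, 1016 and 1064 CPM in sgKCNQ3 against 1142, 1182 and 1131 CPM in NC (-0.15, edgeR adjusted p 0.00197). The isomerase TPI1 held 775, 806 and 739 CPM in sgKCNQ3 against 842, 875 and 848 CPM in NC (-0.14, edgeR adjusted p 0.00438). The enolase ENO1 held 1981, 2103 and 1970.0 CPM in sgKCNQ3 against 2160.0, 2208 and 2218 CPM in NC (-0.12, edgeR adjusted p 0.0104).

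These 4 calls did not hold once length and GC trends were removed. The longest coding transcripts of TPI1, GAPDH, ENO1 and ALDOA are 1763, 1875, 2345 and 2448 bases, beside a median of 3482 bases over the tested genes, and their GC contents are 57.3%, 58.8%, 58.9% and 62.0%, beside a median of 48.5%. Both trends were removed together, and the separate parts of length and GC content were not tested. In that setting their log2 fold changes were -0.06, -0.01, -0.05 and -0.07 and none was called (edgeR adjusted p 0.218, 0.775, 0.338 and 0.0945). On log2(TPM + 1) none of the 4 was called either (limma adjusted p 0.231 for TPI1, 0.703 for GAPDH, 0.478 for ENO1 and 0.25 for ALDOA). GAPDH also lost its call with library size alone (edgeR adjusted p 0.13) and with upper quartile factors (0.0652). The same held without NC replicate 2 (edgeR adjusted p 0.109), NC replicate 3 (0.204) or sgKCNQ3 replicate 1 (0.104). ENO1 lost its call with library size alone (edgeR adjusted p 0.052), and without NC replicate 3 (0.0688), sgKCNQ3 replicate 1 (0.0731) or sgKCNQ3 replicate 3 (0.0501). The falls of SLC2A1 (-0.21), SLC16A3 (-0.19) and HK2 (-0.23) and the rise of PFKFB3 (0.17) were called with those trends removed. The kinase PGK1 (0.03), the mutase PGAM1 (-0.07), the second enolase ENO2 (-0.06) and the pyruvate kinase PKM (-0.06) were not called.

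Counts of the listed lactate dehydrogenase genes were almost wholly those of LDHA. LDHA, which favours the making of lactate, held 1633, 1614 and 1608 CPM in sgKCNQ3 against 1707, 1694 and 1628 CPM in NC, and was not called (log2 fold change -0.05, SE 0.0339, edgeR adjusted p 0.275). LDHB, the subunit of oxidative tissues, had 1, 0 and 0 counts in sgKCNQ3 and 0, 1 and 0 counts in NC, beside 25461 to 26828 counts of both genes together per library. The upper 95% limit (exact Clopper-Pearson, counting error only) of the LDHB share of these counts was 0.0140% to 0.0214% over the 6 libraries. In the 4 libraries without an LDHB count this limit was 0.0140% to 0.0145%. In GENCODE release 29, 997 exon bases of LDHB are shared with another gene on the same strand, with the assignment of such reads not given in the sources used here. PDK1, the kinase that restrains pyruvate entry into mitochondrial oxidation, had a log2 fold change of -0.10 (edgeR adjusted p 0.277). It was called lower in only 1 of 16 alternatives, that with length and GC trends removed (-0.24, edgeR adjusted p 0.00665). The length used there for PDK1 was 14193 bases, beside a median of 3482 bases over the tested genes.

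**Figure D2:**
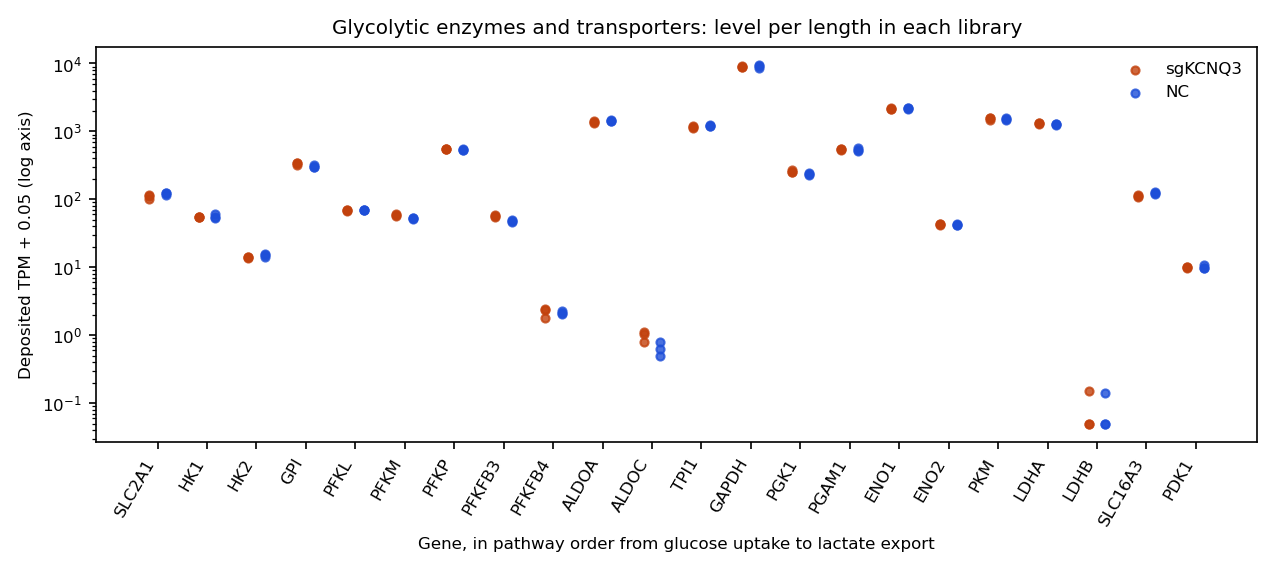
Deposited TPM plus 0.05 on a log axis for the 22 glycolytic genes in pathway order, each point a library, sgKCNQ3 left of NC. GAPDH lies highest (means 8971 TPM in sgKCNQ3 and 9143 TPM in NC), 1 paralog dominates at the aldolase, enolase and lactate dehydrogenase steps, and the groups lie close together for the abundant genes.

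In the oxygen-sensing machinery, the mRNAs of both listed prolyl hydroxylases and of the HIF-2 alpha subunit were higher. HIF1A, the HIF-1 alpha subunit, held 893, 889 and 902 CPM in sgKCNQ3 against 879.5, 820.0 and 862 CPM in NC. The groups did not overlap, but the difference was not called (log2 fold change 0.07, SE 0.0354, edgeR adjusted p 0.156), except with library size alone (0.10, adjusted p 0.0273) and on log2(TPM + 1) (0.16, limma adjusted p 0.0210). EPAS1, the HIF-2 alpha subunit, held 172, 161 and 179 CPM in sgKCNQ3 against 145, 148 and 143 CPM in NC (0.23, SE 0.0425, edgeR adjusted p 2.19e-04), a rise of 17.4% called in each of the 16 alternatives.

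EGLN3 encodes PHD3, a prolyl hydroxylase that is itself a classic HIF target. It held 371, 385 and 327 counts in sgKCNQ3 against 237, 241 and 246 counts in NC, which is 23.3, 24.4 and 20.5 CPM against 15.4, 15.2 and 15.7 CPM. The lowest sgKCNQ3 library stood well above the highest NC library (log2 fold change 0.56, SE 0.0796, edgeR adjusted p 1.06e-05), a rise of 47.2%. EGLN1, which encodes PHD2, the main hydroxylase acting on HIF-1 alpha, rose less, at 115, 116 and 118 CPM in sgKCNQ3 against 105, 105 and 109 CPM in NC (0.13, edgeR adjusted p 0.0184). EGLN1 lost its call without NC replicate 1 (0.12, adjusted p 0.0698) and with length and GC trends removed (0.03, adjusted p 0.546).

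The other genes called higher were a carbonic anhydrase, a MYC antagonist and a mitophagy receptor. CA12, a membrane carbonic anhydrase that buffers pH outside the cell, held 225, 212 and 201 counts in sgKCNQ3 against 124, 140 and 105 counts in NC. In scaled values this was 14.1, 13.4 and 12.6 CPM in sgKCNQ3 against 8.04, 8.84 and 6.71 CPM in NC (log2 fold change 0.77, SE 0.104, edgeR adjusted p 5.3e-06), a rise of 70.0% at a low level. CA9, the related enzyme most used as a hypoxia marker, was scarce too and overlapped, at 2.45, 1.58 and 1.88 CPM in sgKCNQ3 against 1.56, 2.40 and 1.98 CPM in NC (-0.01, SE 0.225, edgeR adjusted p 0.984). With that error, a change of CA9 of the size seen in most members was not detectable at this depth.

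MXI1, which competes with MYC for the partner MAX, held 23.4, 21.0 and 21.3 CPM in sgKCNQ3 against 16.3, 14.7 and 16.4 CPM in NC. All sgKCNQ3 libraries were higher (log2 fold change 0.47, SE 0.0783, edgeR adjusted p 7.05e-05), a rise of 38.6%. BNIP3L, a receptor that marks mitochondria for autophagy, held 135, 131 and 133 CPM in sgKCNQ3 against 125, 115 and 124 CPM in NC (0.13, edgeR adjusted p 0.0240). It lost its call without NC replicate 2 (0.09, adjusted p 0.113) or sgKCNQ3 replicate 1 (0.12, adjusted p 0.0890). Its relative BNIP3 overlapped between groups, at 97.0, 98.3 and 99.4 CPM in sgKCNQ3 against 103, 96.8 and 104 CPM in NC (-0.04, edgeR adjusted p 0.489).

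The members ADM, ANGPTL4 and VEGFA, which encode secreted proteins, were lower. ADM, the vasodilator peptide adrenomedullin, held 182, 159 and 163 counts in sgKCNQ3 against 202, 215 and 221 counts in NC. ADM had the largest fall among the members (log2 fold change -0.36, SE 0.0907, edgeR adjusted p 0.00365), of 22.3%. ANGPTL4, a secreted inhibitor of lipoprotein lipase, held 40.6, 41.8 and 43.8 CPM in sgKCNQ3 against 51.8, 53.5 and 54.0 CPM in NC (-0.34, SE 0.0538, edgeR adjusted p 4.46e-05). VEGFA, the main growth factor of blood vessels, held 321, 316 and 322 CPM in sgKCNQ3 against 367, 352 and 364 CPM in NC (-0.18, SE 0.0360, edgeR adjusted p 6.77e-04). None of the libraries overlapped between groups for these genes, and each of the 3 falls was called in all 16 alternatives.

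NDRG1, a stress-responsive cytoplasmic protein, and BHLHE40, a transcriptional repressor of the clock and hypoxia responses, were lower as well. NDRG1 held 266, 258 and 284 CPM in sgKCNQ3 against 308, 341 and 322 CPM in NC (log2 fold change -0.26, SE 0.0424, edgeR adjusted p 5e-05). NDRG1 lies near the guide's target on chromosome 8, at bases 133237171 to 133302022 beside 132120858 to 132481019 for KCNQ3. A local effect of the guide on NDRG1 was not tested. BHLHE40 held 97.5, 98.3 and 101 CPM in sgKCNQ3 against 110.0, 114 and 109 CPM in NC (-0.16, edgeR adjusted p 0.00494). Both falls were called in 15 of 16 alternatives, the exception being log2(TPM + 1).

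The remaining HIF targets were not called. P4HA1 and P4HA2, the catalytic subunits of the collagen prolyl hydroxylase, had log2 fold changes of -0.004 and 0.01, and the histone demethylase KDM3A 0.07. Their sgKCNQ3 and NC libraries overlapped. ANKRD37, a small ankyrin repeat protein, had 15, 9 and 11 counts in sgKCNQ3 against 11, 10 and 7 counts in NC, and the aldolase ALDOC 10, 14 and 13 counts in sgKCNQ3 against 10, 8 and 6 counts in NC. With SEs of 0.361 and 0.364 on their log2 fold changes of 0.29 and 0.59, differences of the size called in most members were not detectable for these genes.

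**Figure D3:**
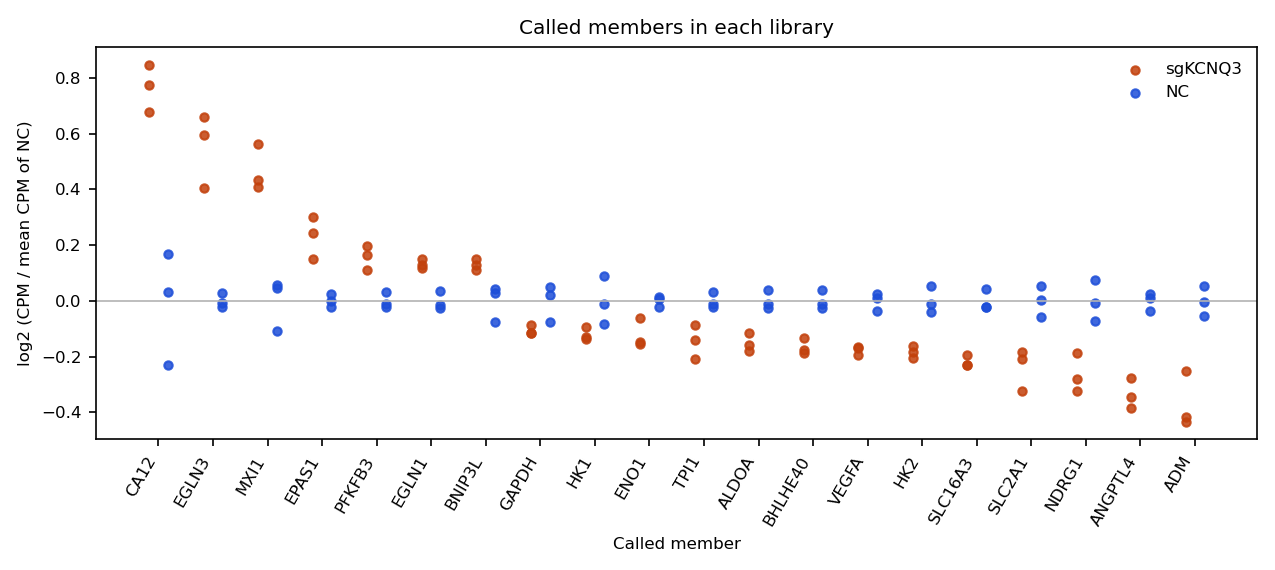
Log2 of CPM over the mean CPM of NC for the 20 called members in each library, sgKCNQ3 left of NC, ordered by log2 fold change. The sgKCNQ3 points lie above every NC point for the 7 genes at the left and below every NC point for the 13 at the right. For HK1 and GAPDH the gap between groups is narrow. The genes were picked by their call on these same libraries, which favours such separation, so it is no further evidence.

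The makeup of the mRNA pool within gene families was compared as well. Shares were taken of deposited TPM summed over the listed members of each family. In all, 13 shares were compared by an exact two-sided permutation test of 3 against 3 libraries, which cannot go below p = 0.1. The groups did not overlap for 10 shares, all at that smallest p, and none could pass a threshold of 0.05 before or after adjustment. No background was computed for such shares, the 41.7% of genes without overlap in CPM being another quantity, and the 3 phosphofructokinase shares depend on each other. EGLN3 made up 24.4% ± 1.93 of the EGLN1 and EGLN3 mRNA in sgKCNQ3 and 19.7% ± 0.167 in NC (SD, n = 3 each, exact p = 0.1). CA12 made up 59.8% ± 4.60 of the carbonic anhydrase pair in sgKCNQ3 and 46.3% ± 5.38 in NC, a difference of 13.5 percentage points that was 7.35 points when shares were taken of CPM. BNIP3L made up 35.0% ± 0.556 of the BNIP3 pair in sgKCNQ3 and 32.2% ± 0.203 in NC, and EPAS1 12.6% ± 0.518 of the HIF alpha pair in sgKCNQ3 and 11.5% ± 0.394 in NC.

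Among enzymes, HK2 made up 20.2% ± 0.233 of HK1 and HK2 mRNA in sgKCNQ3 and 20.9% ± 0.722 in NC. This difference of -0.755 points was -0.338 points without NC replicate 3. HKDC1, a hexokinase gene outside the list, was not in this sum. Its means were 150.2 TPM in sgKCNQ3 and 149.3 TPM in NC, beside 55.2 and 56.36 TPM for HK1. HKDC1 was not called (log2 fold change -0.08, edgeR adjusted p 0.0831). PFKM made up 8.69% ± 0.291 of phosphofructokinase mRNA in sgKCNQ3 and 7.90% ± 0.141 in NC, where PFKP made up 81.1% ± 0.381 in sgKCNQ3 and 81.6% ± 0.142 in NC, a difference of -0.523 points that was -0.306 points without sgKCNQ3 replicate 2. ENO2 made up 1.96% ± 0.0262 of ENO1 and ENO2 mRNA in sgKCNQ3 and 1.88% ± 0.0690 in NC, with overlap (exact p = 0.2). The ENO2 difference of 0.0884 points was 0.0531 points without NC replicate 3. P4HA2 made up 40.5% ± 3.45 of the pair with P4HA1 in sgKCNQ3 and 40.2% ± 0.811 in NC, also with overlap (exact p = 0.9). The 22 glycolytic genes together took 1.84% to 1.90% of all TPM in sgKCNQ3 and 1.84% to 1.94% in NC.

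Neighbouring pathway genes outside the list were called in both directions. In the first 5 of the 6 lists given here, the share of calls was near or below the 29.1% found over all tested genes. Of 12 tested genes of the oxygen-sensing machinery, 1 was called higher and 1 lower. ARNT2, a partner of HIF alpha subunits, rose (log2 fold change 0.26, edgeR adjusted p 0.00634) and EGLN2, the third prolyl hydroxylase PHD1, fell (-0.20, adjusted p 0.00866). Of 10 further tested genes of glycolysis and lactate transport, 3 were called lower and none higher by edgeR. They were BSG, the chaperone of lactate transporters (-0.15, adjusted p 0.00259), TIGAR, a fructose-2,6-bisphosphatase (-0.19, adjusted p 0.00552), and SLC16A1, the lactate transporter MCT1 (-0.14, adjusted p 0.0325). The SLC16A1 libraries overlapped between groups in CPM. Values in the alternative settings are not given here for single genes outside the list.

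Of 14 tested genes of pyruvate entry and gluconeogenesis, 2 were called higher and 2 lower. PDK4, another pyruvate dehydrogenase kinase, rose by 44.2% to 13.2 ± 1.02 CPM in sgKCNQ3, against 9.15 ± 0.334 CPM in NC (SD, n = 3 each; log2 fold change 0.53, edgeR adjusted p 1.76e-04), and the phosphatase gene PDP2 rose too (0.22, adjusted p 0.0319). PCK2, the mitochondrial PEP carboxykinase (-0.18, adjusted p 7.01e-04), and the dehydrogenase subunit PDHA1 (-0.16, adjusted p 0.0156) fell, though the PDHA1 libraries overlapped between groups in CPM. In the pentose phosphate pathway 1 of 7 tested genes was called, the transaldolase TALDO1 (-0.21, adjusted p 5.37e-04), and in glycogen and hexose side branches 1 of 11, the glycogen phosphorylase PYGL (-0.21, adjusted p 0.00146).

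Of 28 further tested hypoxia-inducible genes, 5 were called higher and 4 lower, with a median log2 fold change of 0.04. By smallest p these were STC2, the secreted stanniocalcin (-0.61, edgeR adjusted p 2.58e-11), the transcription factor ZNF395 (0.40, adjusted p 2.49e-06), the EGF receptor inhibitor ERRFI1 (-0.21, adjusted p 6.17e-05) and the mTOR inhibitor DDIT4 (-0.21, adjusted p 9.31e-04). Called genes of this list went in both directions, and its 9 of 28 calls stand beside the 29.1% of all tested genes.

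Some counts may hold reads of other loci. GENCODE release 29 lists 62 pseudogenes named after GAPDH, 39 after BNIP3 and 13 after PGAM1. Counts that were not whole in at least 1 library occurred in 7 of the 40 members. These were GPI, PFKM, ALDOA, PGK1, PGAM1, PFKFB4 and P4HA2, so GAPDH and BNIP3 were not among them. Exons of 9 members overlap exons of another gene on the same strand, with 1657 shared bases for ALDOA. Exons of 21 members, 13 of them called, overlap exons of a gene on the other strand. These overlaps differ in size, with 1 shared base for ANGPTL4 and 4 for BHLHE40 but 520 for ALDOA. The library protocol names no step that marks strand, so reads from the shared bases may not have been told apart.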

How the data were processed

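Groups and replicate numbers were read from the sample titles. The deposited table gave, per the file headers, the authors' expected counts (estimated counts) per gene without normalization, of which 5.52% to 6.33% per library were not whole numbers. It also gave, per the file headers, the authors' TPM, scaled to the same total in each library, and FPKM. The authors' signal columns (counts divided by 1 factor per library), group means and whole-number score columns were deposited too. FPKM, signal and score columns were not used here. Per the submitters' processing notes, the build was GRCh38.p13, with the aligner and counter not given in the sources used here.

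Rounded counts entered edgeR 4.0.16 under R 4.3.3 (filterByExpr with a minimum count of 10, which left 12565 of 16200 genes, TMM factors, robust quasi-likelihood F tests, Benjamini-Hochberg adjustment over all tested genes, threshold 0.05). The SE is the log2 fold change divided by the square root of F. CPM uses TMM-scaled library sizes. Total counts ran from 15601283 to 16089500, and the biological coefficient of variation was 3.62%. A permutation of 3 against 3 libraries cannot go below 0.1 for a single value. No 2 libraries agreed within sampling noise (chi-square per degree of freedom 1.63 to 4.17 within groups and 6.86 to 11.3 between groups). The test was checked on simulated counts.

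The alternatives are named in the last part, and used DESeq2 1.42.0 and limma 3.58.1. Length and GC content were those of each gene's longest coding transcript (GENCODE release 29, 12519 tested genes), and their trends were natural splines with 5 degrees of freedom per library. Same-numbered libraries did not deviate together. The members, lists and tests were chosen with earlier results of these data known. The rule for values in each library took called members that moved by 0.25 or more on the log2 scale, and HIF1A, EPAS1, SLC2A1, LDHA and GAPDH. Library values of further members were added after being seen. Up to 4 called genes with the smallest p were named from each further pathway list. Figures were drawn with matplotlib 3.10.9.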

Additional observations from a re-analysis of the deposited data

How the results depend on the processing

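Direction held for all 20 called members in each of the 16 alternatives, and 9 of the 20 were called in each. All tested genes called numbered 3658, with 2448 in DESeq2 and 2687 to 3471 with a library left out. Of these calls 48.2% were higher with TMM factors, 64.5% with library size alone and 80.8% on log2(TPM + 1). Glycolytic genes called lower numbered 8, but 5 with library size alone, 4 with length and GC trends removed, 1 on log2(TPM + 1) and 5 to 8 with a library left out. Those called higher numbered 1, and 2 in each of these 3 settings. The 5 other HIF-related genes called lower became 3 on log2(TPM + 1), where the glycolytic median was 0.02 against -0.07. The median of all tested genes was 0.06 in that setting, against -0.01 with TMM factors. The replicate number as a block gave 3136 calls, 7 of them lower glycolytic genes (HK1 was lost, adjusted p 0.0577). Same-numbered libraries shared only a number, with correlations of deviations of 0.0136, -0.0977 and 0.00776, and not every library correlated best with its own number. The cause of these differences was not tested.

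Reversals occurred in 12 members that were not called. On log2(TPM + 1) the log2 fold changes were 0.0387 for BNIP3, 0.0537 for CA9, 0.0287 for ENO2, 0.0365 for LDHA, 0.0775 for P4HA1, 0.016 for PFKFB4, 0.0232 for PFKP, 0.0159 for PGAM1 and 0.0241 for PKM. With library size alone they were 0.0284 for CA9, 0.0327 for P4HA1 and 0.0061 for PFKFB4, and with upper quartile factors 0.0121 for CA9 and 0.0163 for P4HA1. The median of all tested genes was 0.0649 on log2(TPM + 1), 0.0287 with library size alone and 0.0124 with upper quartile factors. Of the values just listed, only those of P4HA1 lay above the median of their setting. P4HA1 was 0.0018 with RLE factors and 0.0019 in DESeq2. With length and GC trends removed CA9 was 0.0946, PFKFB4 0.0089 and PGK1 -0.0149. With a library left out, ranges were -0.19 to 0.155 for CA9, -0.0042 to 0.0347 for GPI, -0.0757 to 0.065 for P4HA1, -0.0049 to 0.061 for P4HA2, -0.0941 to 0.08 for PFKFB4 and -0.0116 to 0.0647 for PGK1. In the same way the difference in share was -0.00230 to 0.00248 percentage points for LDHB, which rests on single counts, and -1.15 to 2.23 for P4HA2. The PFKFB4 share difference of -0.552 points was -0.292 without sgKCNQ3 replicate 2. CPM in place of TPM turned no share, but the CA12 difference was 7.35 points against 13.5.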
